A study of Mus musculus with 4 samples.

Results

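The SOCS family comprises 8 genes in the mouse, *Cish* and *Socs1* to *Socs7*, and all 8 were found by symbol among the 24369 genes listed for each library. RNA-seq of sorted GFP+ CD4 T cells gave 4 libraries, 2 with an empty retroviral vector (EV RV) and 2 with a retrovirus carrying *Tox* (Tox RV), and replicate 1 of a group is always given first. Both groups were wild-type (WT) C57BL/6 spleen cells, isolated as naive CD4 T cells, activated without polarizing cytokines by antibodies to CD3 on the plate and to CD28 in solution plus human IL-2, transduced on day 2, restimulated through CD3 on day 5 and sorted. The sample labels write anti-CD28 where the methods name human IL-2. Each group represents 2 mice, and the labels do not say whether a mouse gave cells to both groups. Tox was driven by a murine stem cell virus vector with GFP behind it, so these cells carried Tox at the level the vector gave, and the empty vector carried GFP alone. As the RNA came from bulk cells, a lower value may stand for fewer expressing cells or for less RNA per cell, which cannot be told apart.

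SOCS proteins are feedback inhibitors of cytokine signalling. A cytokine bound to its receptor activates Janus kinases (JAKs), which phosphorylate STAT transcription factors, and the STATs switch on SOCS genes among their targets. Each SOCS protein has an SH2 domain, which binds phosphotyrosine, and a SOCS box, which recruits elongins B and C and cullin 5 to mark bound proteins for degradation. SOCS1 and SOCS3 also block JAKs directly through a kinase inhibitory region. In T cells IL-2 acts through STAT5 to induce *Cish*, *Socs1* and *Socs2*, interferon-γ induces *Socs1*, and IL-6 family cytokines induce *Socs3*, whereas *Socs4* to *Socs7* are less tied to cytokines and include regulators of growth factor receptor signalling.

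The sequences next to the start sites of the induced genes are shown because STAT dimers recognise a short palindrome, TTCNNNGAA. RefSeq promoter sequences (GRCm38.p6, the build also called mm10) of 300 bases, of which the first 250 lie before the start site, were at hand for 4 members, *Cish*, *Socs1*, *Socs3* and *Socs4*. The capitals mark each match to TTCNNNGAA, which reads the same on both strands. The window of *Cish* is chr9:107296409-107296708 (plus strand), that of *Socs3* is chr11:117969317-117969616 (minus strand) and that of *Socs1* is chr16:10785487-10785786 (minus strand).
Cish: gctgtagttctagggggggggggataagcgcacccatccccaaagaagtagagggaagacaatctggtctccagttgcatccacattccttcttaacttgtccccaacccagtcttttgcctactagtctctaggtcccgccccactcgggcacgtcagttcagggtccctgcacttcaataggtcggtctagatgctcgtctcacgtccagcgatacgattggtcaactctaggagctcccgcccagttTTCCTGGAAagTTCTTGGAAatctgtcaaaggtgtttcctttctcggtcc
Socs3: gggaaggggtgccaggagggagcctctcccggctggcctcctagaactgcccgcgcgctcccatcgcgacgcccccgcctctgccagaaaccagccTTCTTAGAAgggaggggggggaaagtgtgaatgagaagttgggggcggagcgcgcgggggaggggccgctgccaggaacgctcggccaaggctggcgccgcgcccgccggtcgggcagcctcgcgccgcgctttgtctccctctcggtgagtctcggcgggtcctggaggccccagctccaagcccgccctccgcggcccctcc
Socs1: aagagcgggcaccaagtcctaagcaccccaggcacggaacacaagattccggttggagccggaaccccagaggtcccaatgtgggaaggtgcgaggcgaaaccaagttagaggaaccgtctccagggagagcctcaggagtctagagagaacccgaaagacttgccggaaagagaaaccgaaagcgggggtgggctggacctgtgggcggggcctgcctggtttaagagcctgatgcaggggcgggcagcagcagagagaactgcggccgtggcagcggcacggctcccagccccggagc

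*Cish* held 2 matches, TTCCTGGAA from position 251 and TTCTTGGAA from position 262 of the window, so both lay at or just after the RefSeq start site. *Socs3* held 1 match, TTCTTAGAA from position 97, which is 154 bases before the RefSeq start. The GENCODE gene spans given below for *Cish* and *Socs3* contain these whole windows. In that annotation both genes thus begin further upstream than the start sites used here. *Socs1* and *Socs4* held 0. Of 32851 promoter windows of this length, 8.30% held at least 1 match and 0.457% held 2 or more. The form with 4 bases in the gap (6.95% of windows), the AP-1 motif TGANTCA (7.81%) and TATAAA (13.6%) were searched on both strands and had 0 matches in the 4 windows. These matches describe letters, and binding was not measured here.

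The libraries held 46989997 to 74548723 expected counts. The sorted cells carried the CD4 T cell markers in all 4 libraries (6 markers, summed level 1505 to 2256 TPM), whereas CD8 T, NK, B and myeloid markers summed to at most 4.98, 1.29, 2.28 and 7.95 TPM, with *Ncr1*, *Klra8* and *Ms4a1* at 0 in all 4. *Tox*, the check on the labels, had 11.7 and 5.73 CPM (counts per 1000000, TMM-normalized) with the empty vector, while Tox RV cells had 121 and 99.9 CPM. The EV RV libraries stood further apart than the Tox RV libraries, with an SD over genes of the log2 difference between replicates of 0.68 against 0.44, and *Rn45s*, a ribosomal RNA precursor, held 24.7% of the counts of EV RV replicate 1 and 7.14% to 11.97% elsewhere. Without EV RV replicate 2, edgeR called 302 genes over all genes tested, and without EV RV replicate 1 it called 1, so each member is given below also without these libraries.

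*Socs1* and *Cish* made up most of the family's transcripts. In TPM, a level taken per transcript length that allows genes to be compared, *Socs1* had 188 and 264 with the empty vector and 190 and 189 with Tox. *Cish* had 245 and 188 TPM in EV RV and 173 and 133 TPM in Tox RV cells. Together they took 75.9% to 82.2% of the summed TPM of the 8 genes, and ranked between 400 and 842 among all genes listed. *Socs2* came next at 30.3 and 77.1 TPM in EV RV and 18.8 and 37.6 TPM in Tox RV cells. The other 5 lay between 5.67 and 17.5 TPM in every library.

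The order of levels was firm only in part. By the mean over 4 libraries it ran from *Socs1* (208 TPM) and *Cish* (185) through *Socs2* (41.0), *Socs4* (15.7), *Socs7* (14.5), *Socs3* (12.2) and *Socs6* (12.2) to *Socs5* (7.48). *Cish* exceeded *Socs1* in EV RV replicate 1, where the ratio of their TPM was 1.30, and was below it in the other 3 libraries, at 0.714, 0.910 and 0.704. Such a ratio is taken within a library and does not depend on how libraries are scaled. *Socs2* was below both and above the remaining 5 in all 4 libraries. *Socs4*, *Socs7*, *Socs3* and *Socs6* did not keep one order, since *Socs3* ranged from 8.57 to 16.9 TPM and *Socs6* only from 11.5 to 13.0 TPM. *Socs5* was the lowest except in EV RV replicate 1, where *Socs3* was lower at 8.57 TPM.

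**Figure D1:**
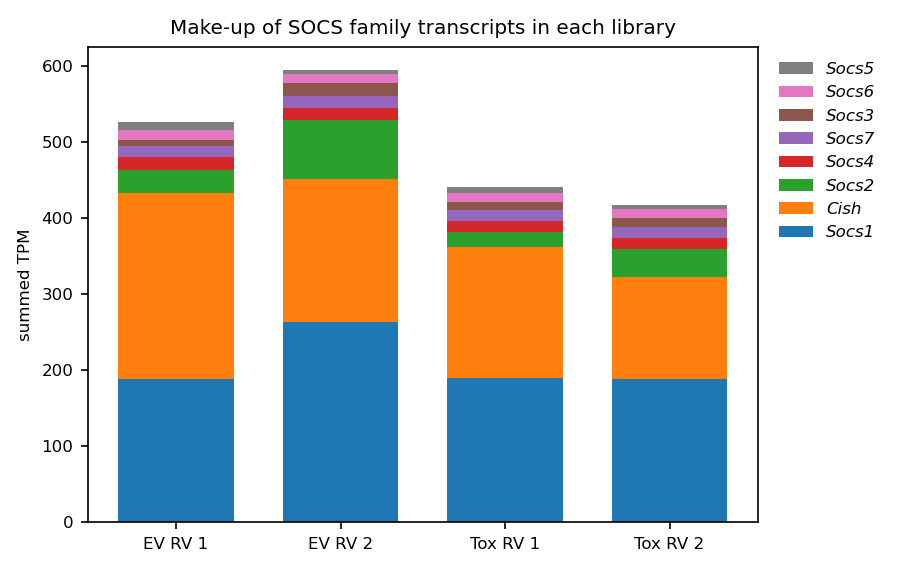
Stacked bars of TPM of the 8 SOCS family genes in each library (x axis, library; y axis, summed TPM, from 0). *Socs1* and *Cish* fill most of each bar, *Socs2* is widest in EV RV replicate 2, and both Tox RV bars, at 441 and 418 TPM, are shorter than both EV RV bars, at 527 and 596 TPM.

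The summed TPM of the family did not overlap between the groups, and *Cish*, *Socs1* and *Socs2* made up most of the difference. It came to 527 and 596 TPM with the empty vector and to 441 and 418 TPM with Tox. The means were 561 ± 48.3 TPM (SD, n = 2) in EV RV and 429.7 ± 16.5 TPM (SD, n = 2) in Tox RV cells, and the log2 of their ratio was -0.39. The exact two-sided permutation test over libraries gave p = 0.333, which is the smallest value that 2 libraries against 2 can give. With counts per kilobase scaled by TMM in place of TPM the log2 ratio was -0.31.

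Gene by gene, 7 of the 8 members (87.5%, against 49.6% of all genes) had a negative and 1 a positive log2 fold change. None passed the test. The quasi-likelihood test of edgeR was adjusted over 14143 genes by the Benjamini-Hochberg method. It called 0 of 8 members at a fold change over 2, an adjusted p under 0.05 and a mean FPKM over 2. In the whole table it called 0 genes (0.0%). *Tox* itself, at a log2 fold change of 3.68 (unadjusted p = 9.44e-05), had an adjusted p of 0.490 in this test. No gene had a smaller one, so the absence of calls says little about the members. No member had an unadjusted p under 0.05 either, against 1.07% of all genes higher (152) and 2.55% lower (360) in Tox RV cells, a split that became 260 higher and 205 lower when libraries were scaled by their totals. DESeq2, the tool named in the methods, called 0 of 8 (0.115% of the genes to which it gave an adjusted p-value). It put 1 member, *Socs2*, below an unadjusted 0.05, where over all genes it put 137 higher and 459 lower ones. The median log2 fold change was -0.13 over the members and 0.00361 over all genes tested. *Cish*, *Socs4* and *Socs6*, 3 of 8 members, had their Tox RV values under both EV RV values, an arrangement found in 17.4% of all genes, and in 0 members did both lie above (18.6%). In 4 members, *Socs1*, *Socs3*, *Socs5* and *Socs7*, both Tox RV libraries lay between the EV RV libraries (25.1% of all genes).

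**Figure D2:**
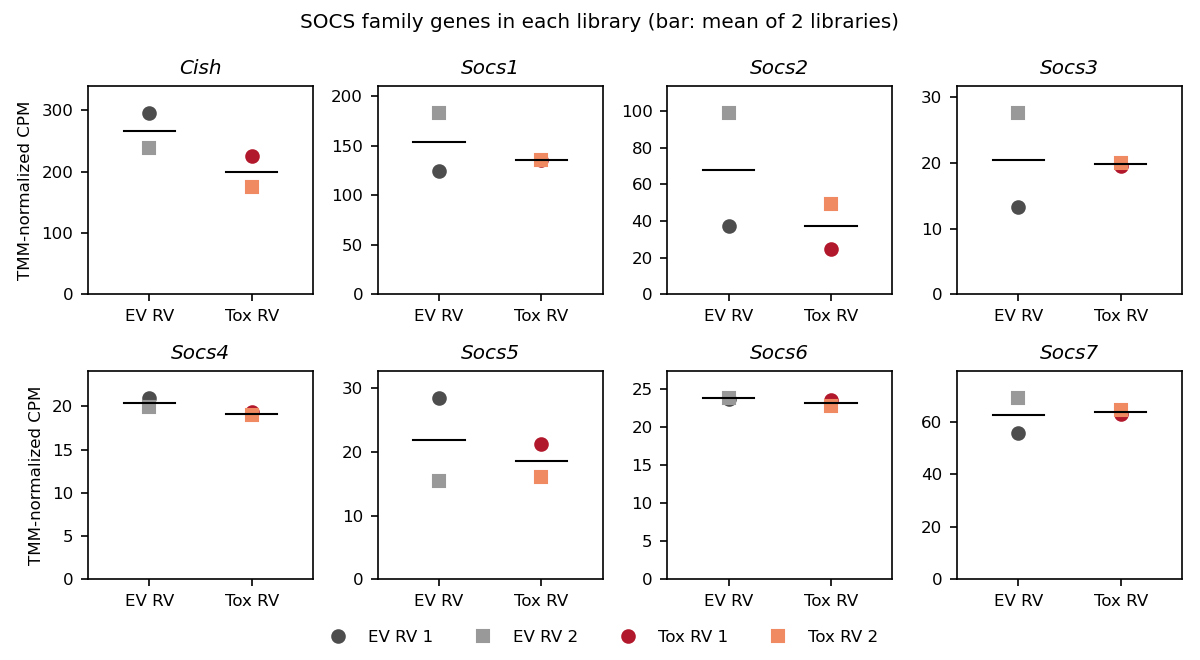
TMM-normalized CPM of each SOCS family gene (y axis, from 0) in the EV RV and Tox RV groups (x axis), 1 point per library and a bar at the mean of 2. *Cish* is lower in both Tox RV libraries, *Socs1* and *Socs3* have nearly equal Tox RV points between distant EV RV points, and *Socs4* and *Socs6* barely vary.

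*Cish* encodes CIS, which binds the IL-2 receptor and the TCR-linked phospholipase C-γ1 pathway and restrains both. The gene, which is protein coding like the whole family, spans 107296026 to 107302784 on the plus strand of chromosome 9 (mm10). EV RV cells had 295 and 238 CPM and Tox RV cells 226 and 174 CPM. Every Tox RV value lay below every EV RV value, with EV RV replicate 2 and Tox RV replicate 1 close together. The means were 267 ± 40.2 CPM and 200.1 ± 36.6 CPM (SD, n = 2 each). Its log2 fold change of -0.42 (standard error, SE, 0.21, 95% interval -0.94 to 0.11, adjusted p = 0.897 by edgeR) was -0.26 without EV RV replicate 1, -0.56 without EV RV replicate 2, -0.62 without Tox RV replicate 1 and -0.23 without Tox RV replicate 2. In GENCODE *Cish* shares 479 exonic bases with *Gm17041* and 261 with *Gm17040* on the other strand. Use of strand in the counting is not given in the sources used here.

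*Socs2* encodes an inhibitor best known for limiting growth hormone signalling, which is induced by STAT5 and restrains Th2 differentiation in T cells. It spans 95385362 to 95417180 on the minus strand of chromosome 10 and has 4 RefSeq transcripts. EV RV cells had 37.0 and 98.8 CPM and Tox RV cells 24.9 and 49.6 CPM. The groups overlapped, since Tox RV replicate 2 exceeded EV RV replicate 1, and the highest library was 3.97 times the lowest, the widest range in the family. The log2 fold change of -0.87 was also the largest in size in the family (SE 0.53, 95% interval -2.18 to 0.44, adjusted p = 0.897 in edgeR, unadjusted p = 0.0401 and adjusted p = 1.00 in DESeq2). It was -1.42 without EV RV replicate 1, 0.012 without EV RV replicate 2, -0.46 without Tox RV replicate 1 and -1.45 without Tox RV replicate 2. A stretch of 452 bases of its longest GENCODE transcript is 99.6% identical to *Gm9847* and 95.6% to *Gm8000*, and neither has its own entry among the genes listed. The counts rest on RefSeq transcripts. Whether those hold these bases was not checked, so an effect on the counts is not known.

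*Socs1* encodes the main brake on interferon-γ and common γ chain cytokine signals in T cells. It spans 10782240 to 10785536 on the minus strand of chromosome 16. EV RV cells had 124 and 183 CPM and Tox RV cells 136 and 135 CPM. The Tox RV libraries were nearly equal and lay between the EV RV libraries. A log2 fold change of -0.18 was estimated (SE 0.23, 95% interval -0.74 to 0.38, adjusted p = 0.905), with -0.44 without EV RV replicate 1 and 0.13 without EV RV replicate 2.

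*Socs3* encodes the inhibitor of gp130 receptors such as that of IL-6, and of the IL-12 receptor. It spans 117966079 to 117970047 on the minus strand of chromosome 11. EV RV cells had 13.3 and 27.5 CPM and Tox RV cells 19.5 and 19.9 CPM. As with *Socs1*, the Tox RV values were close to each other and inside the EV RV range. The log2 fold change was -0.05 (SE 0.35, 95% interval -0.91 to 0.81, adjusted p = 0.983), with -0.49 without EV RV replicate 1 and 0.58 without EV RV replicate 2, so the EV RV library kept as control decided the sign.

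*Socs5*, which has been described as an inhibitor of IL-4 receptor and epidermal growth factor receptor signals, spans 87107679 to 87137839 on the plus strand of chromosome 17. EV RV cells had 28.4 and 15.4 CPM and Tox RV cells 21.2 and 16.0 CPM. In each group replicate 1 was the higher, and the groups overlapped. The log2 fold change was -0.23 (SE 0.33, 95% interval -1.05 to 0.58, adjusted p = 0.910), with 0.27 without EV RV replicate 1 and -0.60 without EV RV replicate 2.

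*Socs4*, *Socs6* and *Socs7* were the steady members. *Socs4* (chromosome 14, 47276931 to 47296102, plus strand) was at 21.0 and 19.9 CPM in EV RV and 19.3 and 18.99 CPM in Tox RV cells. *Socs6* (chromosome 18, 88665224 to 88927481, minus strand), a binder of the receptor tyrosine kinase KIT, was at 23.7 and 23.8 CPM in EV RV and 23.6 and 22.8 CPM in Tox RV cells. *Socs7* (chromosome 11, 97362551 to 97398542, plus strand), an adaptor known from insulin signalling, was at 55.9 and 69.0 CPM in EV RV and 63.1 and 64.5 CPM in Tox RV cells. Their highest library exceeded the lowest by a factor of 1.10, 1.04 and 1.24. The log2 fold changes were -0.09 (95% interval -0.51 to 0.33) for *Socs4*, -0.03 (-0.44 to 0.38) for *Socs6* and 0.031 (-0.42 to 0.48) for *Socs7*, so that for each of them these intervals exclude a 2-fold change either way. Without EV RV replicate 1 their values were -0.059, -0.042 and -0.12, and without EV RV replicate 2 they were -0.12, -0.026 and 0.20. A stretch of 1006 bases of the longest GENCODE transcript of *Socs6* is 96.7% identical to *Gm9449*, which has no entry of its own.

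**Figure D3:**
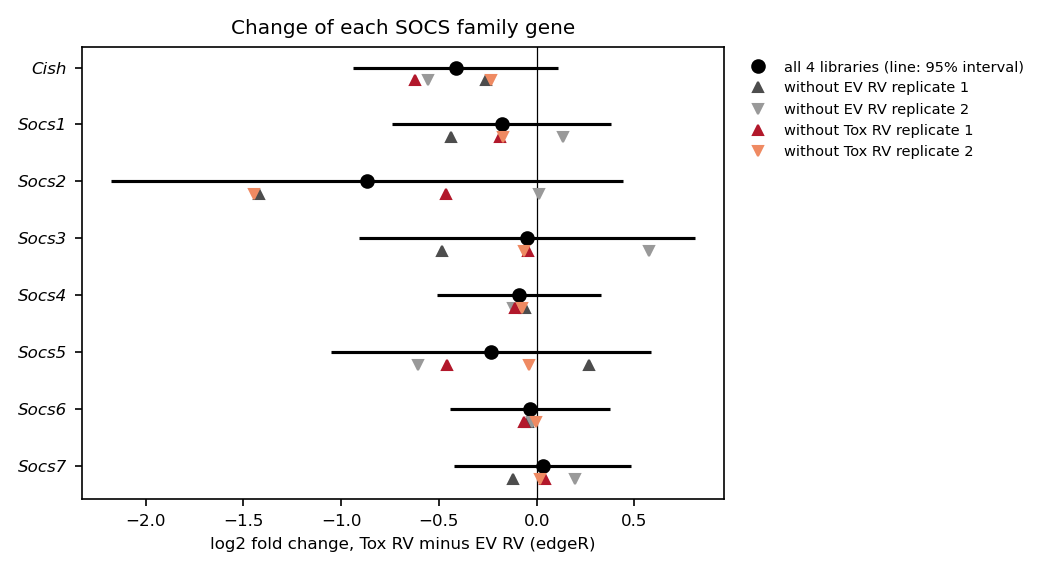
Log2 fold change of each SOCS family gene (x axis, Tox RV minus EV RV; y axis, gene), with a circle and a line for the edgeR estimate and its 95% interval and triangles for fits without 1 library. All 8 intervals cross 0, and the triangles of *Socs2*, *Socs3* and *Socs5* reach furthest apart, with *Socs2* between -1.45 and 0.012.

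The members also differed in how far replicates of the same group lay apart. Between the EV RV replicates (replicate 1 minus 2) the log2 difference was -1.42 for *Socs2* and -1.05 for *Socs3*, sizes above those of 95.5% and 90.1% of all genes. *Socs5* (0.88), *Socs1* (-0.56), *Cish* (0.31) and *Socs7* (-0.30) followed, while *Socs4* (0.076) and *Socs6* (-0.0040) were among the most even genes. The median size of this difference over all genes was 0.377 between the EV RV and 0.168 between the Tox RV replicates. Between the Tox RV replicates *Socs2* again stood apart at -0.99, a size above that of 95.8% of all genes, whereas *Socs1* and *Socs3* differed by 0.0085 and -0.031. The sign was the same in both groups for *Socs2*, *Socs3* and *Socs7*, lower in replicate 1, and for *Cish*, *Socs4* and *Socs5*, higher in replicate 1, and it differed for *Socs1* and *Socs6*. Between the Tox RV replicates *Socs4* and *Socs7* differed by only 0.027 and -0.032. For these 2, and for *Socs1*, *Socs3* and *Socs6*, the sign thus rests on a small difference.

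**Figure D4:**
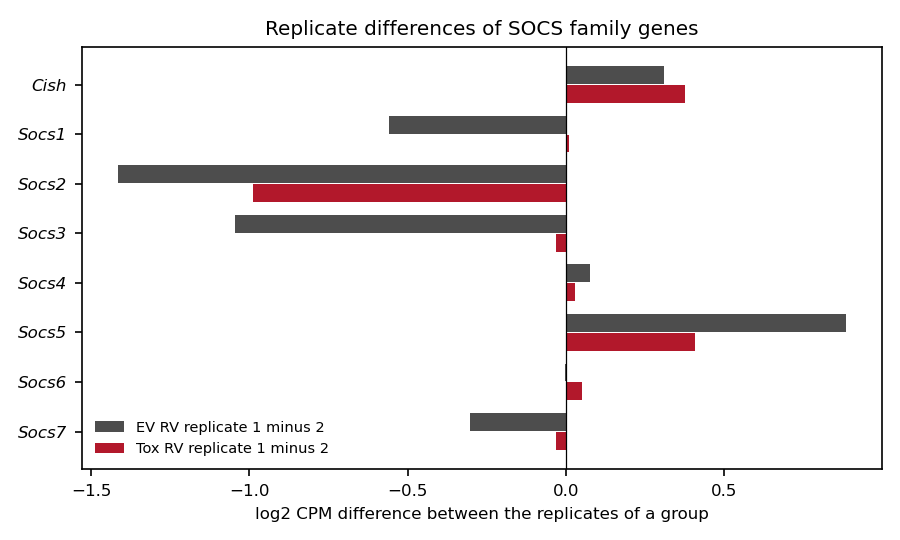
Bars of the log2 CPM difference between replicates 1 and 2 within EV RV and within Tox RV (x axis) for each SOCS family gene (y axis). *Socs2* has long bars in both groups (-1.42 and -0.99), *Socs3* only within EV RV (-1.05 against -0.031), and *Socs6* almost none.

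Genes with a similar course over the 4 libraries were sought among the 9998 genes tested with a mean FPKM above 2, by the Euclidean distance of log2 CPM centred on each gene's mean. Nearest to *Cish* were *1500026H17Rik* (distance 0.0607), *Maoa* (0.0709) and *Neat1* (0.0722). Nearest to *Socs3* were *Snhg6* (0.0589), *Myl10* (0.0809) and *Asns* (0.0842), and *Il4ra*, the IL-4 receptor α chain, ranked 9 at 0.121. *Il4ra* had 361 and 776 CPM in EV RV and 490 and 531 CPM in Tox RV cells, low and high in the same libraries as *Socs3*. *Socs1* lay closest to *Dip2c* (0.0647), *Sco1* (0.0658) and *Wdr5b* (0.0685). The nearest to *Socs2* lay further off, with *Arhgap5* at 0.405, *Pdzk1ip1* at 0.426 and *Kcnk10* at 0.454. This distance is not scaled by a gene's spread, and *Socs2* had the widest range of the family. *Arhgap5*, with 7.89 and 20.3 CPM in EV RV and 7.33 and 11.7 CPM in Tox RV cells, kept the library order of *Socs2*. Among the JAK-STAT genes described below, the nearest were *Myc* to *Cish* (rank 53, at 0.176) and *Ptpn1* to *Socs1* (rank 80, at 0.172). For *Socs2* it was *Stat4* (rank 101), at a distance of 0.908. These are distances over 4 libraries that share the same scaling.

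Of 82 genes listed around the SOCS family in the JAK-STAT pathway 75 were tested. Of these, 30 had a positive and 45 (60%, against 49.6% of all genes) a negative log2 fold change. Under an unadjusted p of 0.05 were 1 higher and 8 lower genes, 1.33% and 10.7% of those tested against 1.07% and 2.55% of all genes. In edgeR 0 passed the adjusted thresholds, while DESeq2 called 1, *Il12rb2*. The median over the 75 was -0.15. The lists here and in the paragraphs below were chosen with earlier results of these data known. Their shares beside those of all genes are thus descriptions and not independent tests. With scaling by library totals the 9 genes under an unadjusted 0.05 became 4. All adjusted p-values of the 9 genes below 0.05 were 0.897 in edgeR's quasi-likelihood test. Without either Tox RV library in turn, *Il12rb2* was the only 1 of these 9 that stayed under an unadjusted 0.05 in both fits.

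Among 8 known STAT5 targets outside the family, 7 had a negative log2 fold change (49.6% of all genes did), and 5 had both Tox RV values under both EV RV values (17.4% of all genes). *Pim2*, a survival kinase, had 72.0 and 64.3 CPM in EV RV against 45.002 and 40.2 CPM in Tox RV cells (log2 fold change -0.68, SE 0.17, unadjusted p = 0.00883 in edgeR). *Ccnd2*, the gene of cyclin D2, was at 793 and 758 CPM against 617 and 497 CPM (-0.48, SE 0.18, unadjusted p = 0.0394 in edgeR). *Myc* was at 226 and 166 CPM against 147 and 117 CPM (-0.57, SE 0.23, unadjusted p = 0.0472 in edgeR), and its value was -0.33 (unadjusted p = 0.105 in edgeR) without EV RV replicate 1. In these 3 genes, as in *Cish*, every Tox RV library was below every EV RV library. *Il2ra*, the IL-2 receptor α chain and the most abundant of the 8 by TPM, had a log2 fold change of -0.29 (95% interval -0.73 to 0.14), and *Bcl2* the only positive value (0.15), which was -0.13 without EV RV replicate 1.

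Of the STAT genes 6 of 7 (85.7%, against 49.6% of all genes) had a negative value, with a median of -0.27. *Stat2*, a transducer of type I interferon signals, was at 95.8 and 69.4 CPM in EV RV and at 49.5 and 48.4 CPM in Tox RV cells (-0.76, SE 0.21, unadjusted p = 0.0124 in edgeR). *Stat3* was the only one with a positive value (0.069). The STAT5 genes were looked at after their values were seen. They were lower in both Tox RV than in both EV RV libraries, as were 17.4% of all genes. Their log2 fold changes were -0.27 for *Stat5a* (95% interval -0.70 to 0.16) and -0.35 for *Stat5b* (-0.74 to 0.042). The 4 JAK genes lay between -0.23 (*Jak1*) and 0.11 (*Jak3*), and *Jak2*, the most abundant by TPM, was at 0.0052. *Jak1* was at 0.40 without EV RV replicate 1.

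Of 25 receptor chains 23 were tested, with a median of -0.19. A negative value was found in 17 of them (73.9%, against 49.6% of all genes). Below an unadjusted 0.05 were *Il12rb2*, a chain of the IL-12 receptor with 442 and 247 CPM against 150 and 113 CPM (-1.39, SE 0.32, unadjusted p = 0.00548 in edgeR), and both chains of the interferon-γ receptor, *Ifngr1* (-0.68, SE 0.27, unadjusted p = 0.0475) and *Ifngr2* (-0.54, SE 0.18, unadjusted p = 0.0246). *Il12rb2* was at -0.92 without EV RV replicate 1. *Ifngr1*, with 336 and 201 CPM against 174 and 162 CPM, was at -0.27 (unadjusted p = 0.0904 in edgeR) without EV RV replicate 1 and at -0.996 without EV RV replicate 2. *Ifngr2* was at 26.3 and 27.8 CPM in EV RV and at 17.3 and 20.0 CPM in Tox RV cells. Its groups did not overlap, and 17.4% of all genes were lower in this way. *Il2rb*, the most abundant chain by TPM, had a log2 fold change of -0.11, and *Il13ra1* the highest at 1.08 but at below 1 CPM in every library.

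Several cytokine genes differed more between the EV RV libraries than any SOCS gene did, up to a log2 difference of -5.48 for *Il10*. Of 16 listed 13 were tested, 7 with a positive and 6 with a negative value, and 0 were below an unadjusted 0.05 in edgeR. *Il10* had the highest log2 fold change (1.53, 95% interval -1.75 to 4.82), with 0.57 without EV RV replicate 1 and 6.10 without EV RV replicate 2. *Il15* had the lowest (-1.01), but at below 1 CPM in every library. *Il13*, the most abundant by TPM, had 0.96 (0.13 without EV RV replicate 1 and 3.11 without EV RV replicate 2). The summed level of the 16 was 165 TPM in EV RV replicate 1 and 792 TPM in EV RV replicate 2, against 764 and 457 TPM in Tox RV replicates 1 and 2. *Il4* and *Ifng*, whose proteins act through JAKs, were looked at after their values were known. *Il4* had 1.68 and 38.1 CPM in EV RV and 14.4 and 16.8 CPM in Tox RV cells, and *Ifng* had 10.9 and 107 CPM in EV RV and 96.0 and 47.4 CPM in Tox RV cells. Of the SOCS genes, *Socs1*, *Socs2*, *Socs3* and *Socs7* were lower in EV RV replicate 1 than in EV RV replicate 2, *Cish*, *Socs4* and *Socs5* were higher, and *Socs6* was nearly equal. Whether the cytokines had a part in these differences was not tested.

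The partners that the SOCS box recruits all had positive but small values, whereas 49.6% of all genes had negative ones. The 6 genes measured, *Tceb1* and *Tceb2* (elongins C and B), *Cul5*, *Rnf7*, *Ube2f* and *Arih2*, had log2 fold changes of 0.10 to 0.22, with a median of 0.13, and 0 were below an unadjusted 0.05 in edgeR. Without EV RV replicate 1 their median was -0.0024. Of 8 other SOCS box genes 6 were tested, from *Rab40c* (-0.53) to *Spsb1* (0.60), with the most abundant by TPM, *Wsb1*, at 0.12. Without EV RV replicate 1 the value of *Spsb1* was -0.17 and that of *Rab40c* -0.14.

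Among 10 other inhibitors of JAK-STAT signalling 5 had a positive and 5 a negative value. *Ptpn6*, which encodes the phosphatase SHP-1, was the 1 gene of the pathway that was higher at an unadjusted p-value below 0.05. It had 218 and 182 CPM in EV RV against 335 and 274 CPM in Tox RV cells (log2 fold change 0.60, SE 0.19, unadjusted p = 0.0222 in edgeR), opposite in sign to that of *Cish*. *Usp18*, an inhibitor of type I interferon receptor signalling, was at 20.5 and 27.3 CPM against 14.8 and 16.4 CPM (-0.62, SE 0.21, unadjusted p = 0.0284 in edgeR), and its value was -0.39 (unadjusted p = 0.0537 in edgeR) without EV RV replicate 2.

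**Figure D5:**
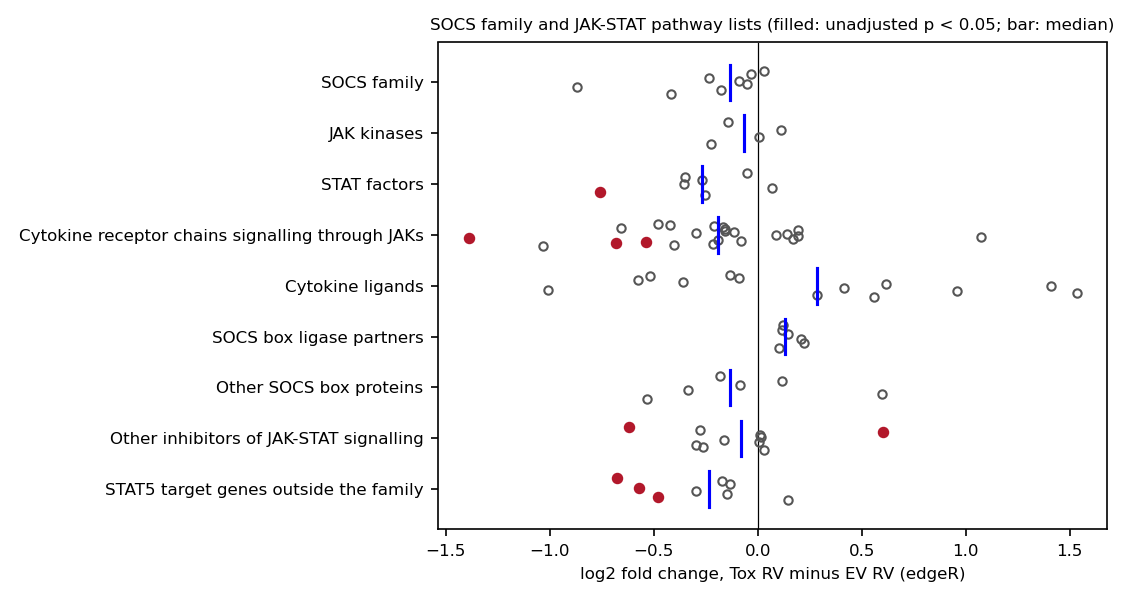
Log2 fold change (x axis, Tox RV minus EV RV) of each tested gene of the SOCS family and of 8 JAK-STAT lists (y axis), with filled points for an unadjusted p-value below 0.05 in edgeR and a bar at the median. No SOCS family point is filled, 3 STAT5 targets are filled on the negative side, and the 6 SOCS box partners cluster just above 0.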

How the data were processed

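The members and gene lists were chosen with earlier results of these data known. Reads were passed through fastqc by the authors, aligned with bowtie1 to mm10 transcripts and quantified per gene in RSEM, and the submitters' processing notes also list Bowtie2. The deposited expected counts are not normalized, the deposited TPM and FPKM values are RSEM's own, and a deposited table of the whole series named as TPM holds RPKM-like values, since its columns sum to 461343 to 515117. Its 4 columns were matched to libraries by name, and served for 1 alternative.

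Rounded expected counts were fitted in edgeR 4.0.16 (R 4.3.3). Low genes were removed with filterByExpr (minimum count 10), scaled by TMM and compared by the quasi-likelihood test with no block, with Benjamini-Hochberg adjustment over 14143 genes. The common biological coefficient of variation was 0.232. Calls needed a mean FPKM over 2 in 1 group or both, a fold change over 2 and an adjusted p under 0.05. The standard error came from the fold change and the F statistic, and intervals are 95%. Alternatives were DESeq2 1.42.0, limma 3.58.1 on log2(TPM + 1) or log2(TPM + 0.1), other scalings, no filter, a replicate block and leaving out each library. The tests were tested on simulated data. Gene positions are from GENCODE M21. Pathway genes named are those with an unadjusted p-value below 0.05, the highest, lowest and most abundant of each list, and the nearest neighbours of 4 members (3 each, and 1 from the lists). A gene that this rule names is not reported here.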

Additional observations from a re-analysis of the deposited data

How the results depend on the processing

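Each of the 8 members was refitted under 12 alternatives, which gave 96 values. Of these, 84 kept their direction, 12 changed sign, and 0 reached an adjusted p-value below 0.05. Leaving out a library leaves 1 in its group, which the fit assumes to vary like the other group, and it turned *Socs1*, *Socs2* and *Socs3* (0.13, 0.012 and 0.58 without EV RV replicate 2) and *Socs5* and *Socs7* (0.27 and -0.12 without EV RV replicate 1). Over the fits without 1 library, the ranges were -0.44 to 0.13 for *Socs1*, -1.45 to 0.012 for *Socs2*, -0.49 to 0.58 for *Socs3*, -0.60 to 0.27 for *Socs5* and -0.12 to 0.20 for *Socs7*. Scaling by library totals moved the median of all genes to 0.12 and gave *Socs3* 0.040, *Socs4* 0.033 and *Socs6* 0.087, which were -0.084, -0.091 and -0.036 relative to that median. It also changed the share of higher genes among those at an unadjusted p-value below 0.05 from 29.7% to 55.9%. *Socs7* was at -0.0073 with library totals without *Rn45s*, and at -0.041 and -0.043 in limma on log2(TPM + 1) and log2(TPM + 0.1). Relative to the median of all genes in these fits it was at 0.029, 0.0076 and 0.024.

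Counts of calls depended on the setting. The number of genes called over all genes tested, 0 in edgeR, was 21 in DESeq2, 20 without the low-count filter, 15 with the replicate block and 1 to 302 without 1 library. Members at an unadjusted p-value below 0.05 numbered 1 in DESeq2 and without the filter, 2 with the replicate block and 0 to 3 without 1 library, against 0 in edgeR. Of the pathway genes, 1 was called in DESeq2, without the filter and with the block, and 0 to 7 without 1 library. Those at an unadjusted p-value below 0.05, 9 in edgeR, numbered 4 with scaling by library totals, 14 with the block and 2 to 33 without 1 library. The log2 ratio of the family's summed TPM was -0.48 without *Socs1*, its most abundant member, and -0.47 to -0.29 without 1 library. The causes were not tested. The number of all genes below an unadjusted 0.05 moved as well. DESeq2 had 137 higher and 459 lower, and the fit without the low-count filter had 246 higher and 701 lower. This number also rose with the block, as given below, and without either EV RV library, and it fell without either Tox RV library. A higher count in such a fit therefore does not by itself set members or pathway genes apart from other genes.

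With the replicate number as a block *Socs3* was at 0.040. In that fit *Socs2* was at -0.79 (unadjusted p = 0.00169, adjusted p = 0.214 in edgeR). *Cish* was at -0.42 (unadjusted p = 0.0463, adjusted p = 0.557 in edgeR). The block put more genes of the whole table below an unadjusted 0.05, with 407 higher and 825 lower against 152 and 360 without it. Over genes, the replicate differences of the 2 groups correlated at 0.302, with 2 pairs of numbers and no label that ties a number to a mouse.

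Among 26 named pathway genes, 16 of 312 values changed sign. With all 4 libraries kept, *Il12rb2* alone newly passed an adjusted p-value of 0.05. It did so in DESeq2 (-1.38, adjusted p = 0.0111) and in edgeR with the block (-1.34, adjusted p = 0.0196). In edgeR with low genes kept it also passed (-1.37, adjusted p = 0.0247). Over all genes tested, these settings called 21, 15 and 20 genes. Any other new pass came from a fit that leaves 1 library in a group, and is not counted here. Without EV RV replicate 1 the changed signs were *Bcl2* (-0.13), *Jak1* (0.40), *Spsb1* (-0.17), *Tceb2* (-0.011) and *Wsb1* (-0.090). Without EV RV replicate 2 they were *Jak2* (-0.044) and *Jak3* (-0.044), without Tox RV replicate 1 *Jak2* (-0.070) and without Tox RV replicate 2 *Tceb2* (-0.028). *Il2rb* was at 0.011 with library totals, *Jak2* at -0.0015 with median-of-ratios scaling and -0.036 with totals without *Rn45s*, and in limma *Jak2* was at -0.078 with either pseudocount and *Stat3* at -0.014. With 1 library left out, the ranges were -0.13 to 0.49 for *Bcl2*, -0.66 to 0.40 for *Jak1*, -0.070 to 0.076 for *Jak2*, -0.044 to 0.29 for *Jak3*, -0.17 to 2.43 for *Spsb1*, -0.028 to 0.25 for *Tceb2* and -0.090 to 0.36 for *Wsb1*.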
